A study of Mus musculus with 24 samples.

Results

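The genes described here are those whose symbol starts with Kcn, the prefix given to the pore-forming subunits of potassium channels, to the beta, Kcne and KChIP subunits that travel with them, and to a few RNAs named after them. They were taken from the deposited gene tables of the striatum by symbol alone, and a gene was described when its pooled level reached 0.1 FPKM (fragments scaled to transcript length and to library size) in at least 1 of the 4 groups. Of 24340 genes shared by all tables, 98 carried the prefix, and 88 of these reached the minimum, of 17264 genes that did so in all. The 88 comprised 69 pore-forming genes, 14 auxiliary subunits and 5 others, namely Kcnrg and the RNAs Kcnd3os, Kcnmb4os1, Kcnmb4os2 and Kcnq1ot1. The 10 genes below the minimum were Kcna7, Kcna10, Kcne1, Kcnj1, Kcnj15, Kcnk15, Kcnk16, Kcnk18, Kcnmb3 and Kcnv2, the highest of them Kcna10 at 0.0864 FPKM in WT-vehicle, and they are not described further.

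Potassium channels let potassium ions leave a cell along their gradient, which holds the membrane negative at rest and ends each action potential. In projection neurons of the striatum, which make up most of its nerve cells, inward rectifier channels of the Kir2 type keep the resting potential very negative, and A-type channels built of Kv4 pores with KChIP partners delay firing. Other cells of the tissue have channels of their own, such as Kv3 in fast-spiking interneurons, Kir4.1 in astrocytes and Kir7.1 in the choroid plexus.

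The study treated R6/1 mice, which carry a transgene of the first exon of human HTT with an expanded CAG repeat and model Huntington's disease, and their wild type (WT) littermates. Male mice on a C57BL/6J background received RGFP109, an inhibitor of the histone deacetylases HDAC1 and HDAC3, or vehicle alone. RGFP109 was given at 30 mg/kg into the peritoneum 5 times a week for 3 weeks (23 days in all), from an age of 11 to 14 weeks, and the striatum was taken 18 h after the last dose, at 14 to 17 weeks. The vehicle was dimethyl sulfoxide in saline, which all 4 groups received. WT-vehicle held 5 mice, R6/1-vehicle 6, WT-RGFP109 6 and R6/1-RGFP109 7 mice. The R6/1 mice were hemizygous for the transgene, which is present in every cell in addition to the mouse's own Htt genes. No difference below can therefore be assigned to 1 cell type by the design.

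Each deposited table held 1 FPKM value per group and none per mouse. No spread between mice and no test could therefore be computed. Library depth is likewise unknown, and each ratio below is a description of 2 pooled values with no replicate check. The p-values and q-values of the authors' own tests between groups were deposited with these values but were not used here. Levels of the vehicle groups were read from their own table and those of the RGFP109 groups from theirs, and wherever 4 levels are given, each pair names WT first and R6/1 second. Differences are log2 ratios of FPKM + 0.05 within the table of the 2 groups compared, which understates the difference of genes with low levels, and a ratio beyond 0.5 in either direction is called past the fold. In homogenised tissue, fewer cells of a type and less RNA per cell cannot be told apart.

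The label of the tissue was checked on marker genes. All 9 markers of striatal projection neurons were present, with Ppp1r1b at 1149 FPKM and Penk at 1114 FPKM in WT-vehicle, and 8 of 9 were lower past the fold in R6/1 in each genotype comparison. Markers of other cells were present too, with none at 0. In R6/1-vehicle against WT-vehicle, 6 of 8 interneuron, 6 of 8 neocortex, 2 of 7 astrocyte, 4 of 6 oligodendrocyte, 0 of 6 microglia, 1 of 6 endothelial or pericyte and 5 of 6 choroid plexus markers were lower past the fold. In R6/1-RGFP109 against WT-RGFP109 the counts were 7 of 8, 1 of 8, 3 of 7, 0 of 6, 0 of 6, 1 of 6 and 4 of 6, in the same order, and no marker was higher past the fold in either comparison. The neocortex and oligodendrocyte lists thus had more members past the fold in the vehicle groups than in the RGFP109 groups, and their part in the results below was not tested.

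The promoter windows of 4 members show the kind of sequence that lies at their start sites. Kcnip2, Kcnj4 and Kcnh4 were chosen because their levels in R6/1 were among the lowest relative to WT, and Kcnj13 because its level also differed with RGFP109. Each window runs from 250 bases before to 50 bases after the start site, on the minus strand of GRCm38.p6, as listed by RefSeq, at chr19:45816014-45816313 for Kcnip2, chr15:79505192-79505491 for Kcnj4, chr11:100759729-100760028 for Kcnh4 and chr1:87394680-87394979 for Kcnj13. Capitals mark GGGCGG, the core of the GC box, on either strand.
Kcnip2: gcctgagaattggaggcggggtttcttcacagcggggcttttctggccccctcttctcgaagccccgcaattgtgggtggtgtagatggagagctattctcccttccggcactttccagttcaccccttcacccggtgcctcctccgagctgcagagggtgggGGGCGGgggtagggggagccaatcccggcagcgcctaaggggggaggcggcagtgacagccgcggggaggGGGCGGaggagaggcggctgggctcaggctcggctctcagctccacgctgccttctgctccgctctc
Kcnj4: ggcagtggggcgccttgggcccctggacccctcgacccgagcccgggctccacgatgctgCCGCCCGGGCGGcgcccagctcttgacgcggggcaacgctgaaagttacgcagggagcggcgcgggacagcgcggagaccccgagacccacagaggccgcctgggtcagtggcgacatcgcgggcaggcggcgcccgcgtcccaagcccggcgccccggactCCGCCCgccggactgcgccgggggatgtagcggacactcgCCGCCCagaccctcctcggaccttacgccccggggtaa
Kcnh4: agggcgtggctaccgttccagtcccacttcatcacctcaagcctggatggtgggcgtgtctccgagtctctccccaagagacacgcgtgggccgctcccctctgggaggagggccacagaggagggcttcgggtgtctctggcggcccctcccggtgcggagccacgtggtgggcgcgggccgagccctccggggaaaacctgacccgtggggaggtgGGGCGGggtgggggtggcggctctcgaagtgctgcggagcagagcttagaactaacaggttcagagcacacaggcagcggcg
Kcnj13: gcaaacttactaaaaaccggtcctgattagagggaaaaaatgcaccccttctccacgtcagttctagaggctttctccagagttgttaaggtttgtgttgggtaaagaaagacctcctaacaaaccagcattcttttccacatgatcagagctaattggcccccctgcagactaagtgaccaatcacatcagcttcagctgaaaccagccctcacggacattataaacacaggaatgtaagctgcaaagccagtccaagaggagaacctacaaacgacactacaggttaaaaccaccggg
The windows of Kcnip2, Kcnj4 and Kcnh4 were GC-rich, at 67%, 76% and 68.7% G or C with 18, 41 and 23 CpG dinucleotides, and held 2, 4 and 1 copies of GGGCGG. The Kcnj13 window was different in make-up, with 46% G or C, 5 CpG and no GGGCGG, and it was the one window of the 4 that held TATAAA.

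RefSeq windows were at hand for 64 of the 88 genes (89 windows), and their median GC content was 59.7%, against 52.7% for all 32851 windows in the table. GGGCGG on either strand was in 50.6% of Kcn windows and 35.7% of all windows. Among Kcn windows it was in 54.5% of the 33 windows of genes past the fold lower in R6/1-vehicle and in 48.2% of the 56 windows of the other members. TATAAA was in 4.49% of Kcn windows and 13.6% of all windows. CCAAT was in 32.6% against 37.4%, TGACG in 20.2% against 20.8%, GTGACGT in 4.49% against 3.85%, CACGTG in 7.87% against 7.15%, TGAGTCA in 2.25% against 5.20%, and CTGTCC in 29.2% against 22.2%. TGACGTCA, GCGTGGGCG and GCGCATGC were in 0% of Kcn windows and in 1.79%, 0.612% and 2.71% of all windows. All 11 motifs were searched on both strands, TGACG lies within TGACGTCA and GTGACGT, and a match or its absence describes the letters of the window only.

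In WT-vehicle, the most abundant Kcn genes were 3 auxiliary subunits and 1 inward rectifier. Kcnip2, which encodes the KChIP2 partner of Kv4 channels, stood at 160.0 FPKM in WT and 76.1 FPKM in R6/1 with vehicle, and 151 and 70.5 FPKM with RGFP109. Kcnab2, a Kv beta subunit, stood at 128 FPKM in WT and 95.3 FPKM in R6/1 with vehicle, and 133 and 99.7 FPKM with RGFP109. Kcnj4, the Kir2.3 inward rectifier, stood at 125 FPKM in WT and 65.7 FPKM in R6/1 with vehicle, and 118 and 64.3 FPKM with RGFP109. In each of these genes both R6/1 groups were below both WT groups, and the 2 groups of a genotype were close to each other. Kcnab1, the other main beta subunit, followed at 97.0 FPKM in WT-vehicle. The median member was at 7.53 FPKM in WT-vehicle, close to the median of 7.45 FPKM over all genes at the minimum, 71 members reached 1 FPKM in some group and 39 reached 10 FPKM.

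**Figure D1:**
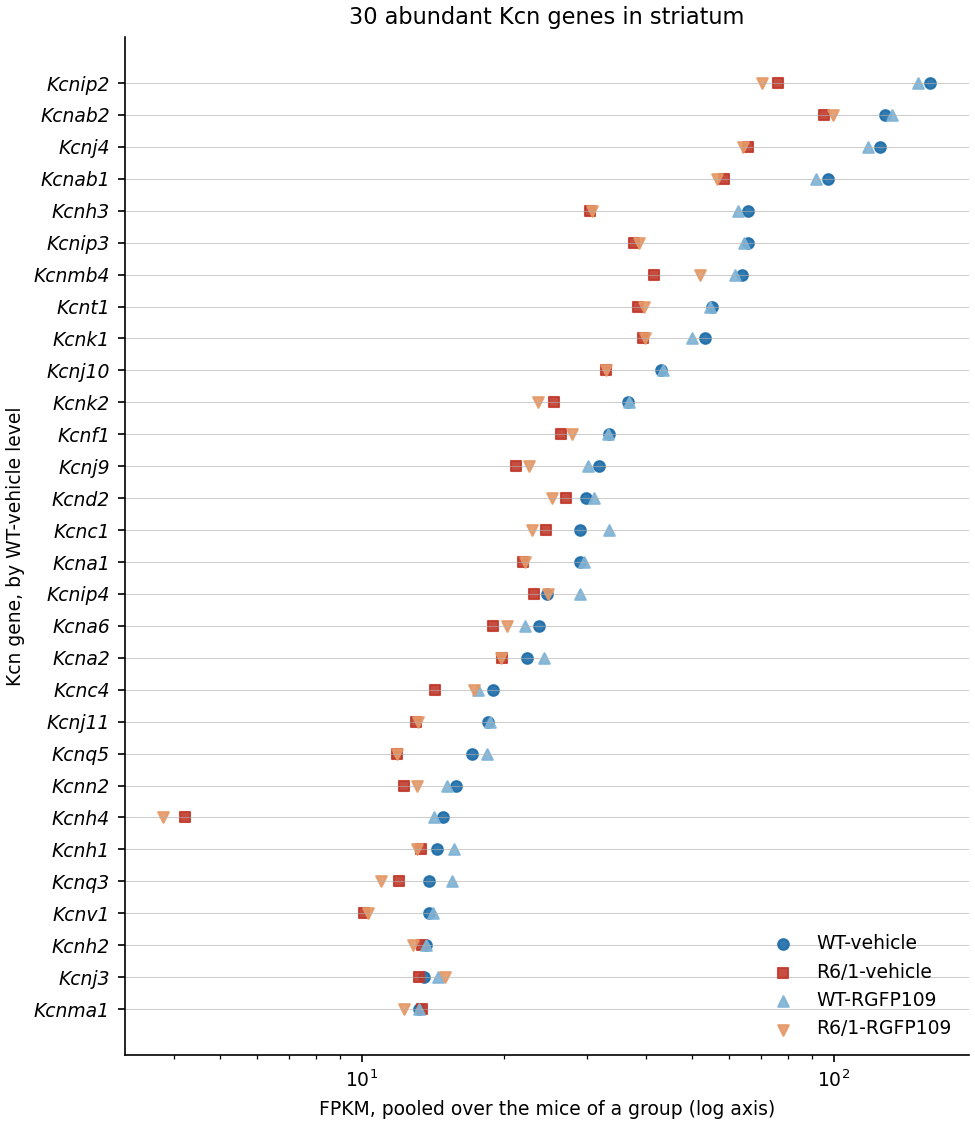
Pooled FPKM on a log axis of 30 abundant Kcn genes, with 1 marker for each of the 4 groups and genes ordered by their WT-vehicle level. Both R6/1 groups lie to the left of both WT groups in most rows, with Kcnh4 the widest apart, from 14.8 FPKM in WT-vehicle to 4.22 in R6/1-vehicle, while markers of the same genotype lie close together.

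Summed over the 88 genes, the level was 1625 FPKM in WT and 1134 in R6/1 with vehicle, and 1605 and 1136 FPKM with RGFP109. The R6/1 sum was thus 69.8% of the WT sum with vehicle and 70.8% with RGFP109, where the sum over all genes at the minimum was 91.4% and 93.9%. Pore-forming genes summed to 73.7% of WT-vehicle in R6/1-vehicle and auxiliary subunits to 62.7%.

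The comparison of R6/1-vehicle with WT-vehicle asks how the channel genes stand in the diseased striatum without the inhibitor. Of the 88 genes, 29 were lower past the fold in R6/1-vehicle and 2 were higher, that is 33.0% lower and 2.27% higher, against 13.3% lower and 5.86% higher over all genes. The median log2 ratio was -0.28, with -0.02 over all genes, and 75 of 88 members had a ratio below 0 (85.2%, against 52.2% of all genes). Among the 71 members at 1 FPKM or more, 22 were lower and 0 higher past the fold, where all genes at that minimum had 10.8% lower and 4.26% higher. The lower members included 21 of 69 pore-forming genes and 6 of 14 auxiliary subunits, and all 14 auxiliary subunits had a ratio below 0. The members thus leaned to lower levels more often than the gene list at large, with most of them inside the fold.

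**Figure D2:**
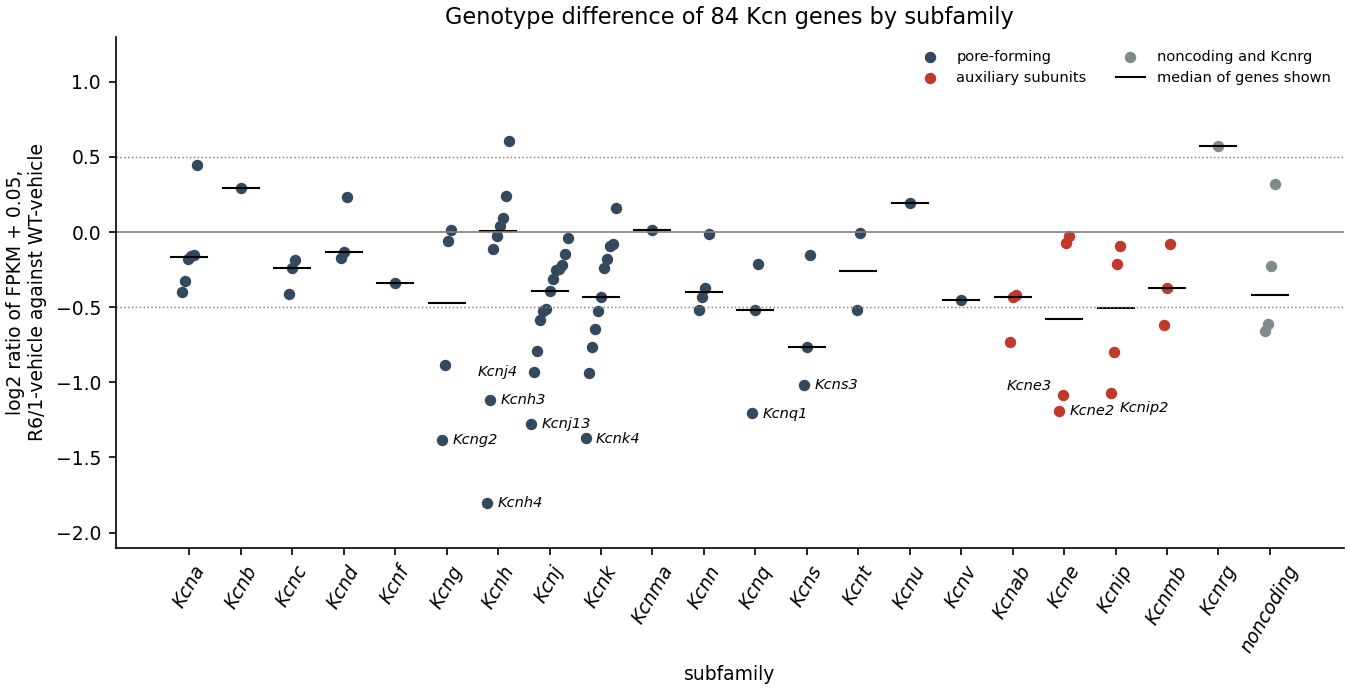
The log2 ratio of R6/1-vehicle against WT-vehicle (FPKM + 0.05) for 84 Kcn genes, by subfamily, with a bar at the median of the genes shown and dotted lines at 0.5 and -0.5. Most points lie below 0, Kcnh4 is the lowest at -1.80, and the Kcnh subfamily spans from there up to Kcnh8 at 0.60.

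Among voltage-gated pores, the Kcnh subfamily divided along its branches. The Kv12 pores Kcnh3 and Kcnh4 were low in R6/1. Kcnh4, which encodes Kv12.3, was at 14.8 FPKM in WT and 4.22 FPKM in R6/1 with vehicle, and 14.2 and 3.78 FPKM with RGFP109, a log2 ratio of -1.80 with vehicle and the lowest of all 88 members. Kcnh3, which encodes Kv12.2, was at 65.8 FPKM in WT and 30.4 FPKM in R6/1 with vehicle, and 62.6 and 30.7 FPKM with RGFP109, a log2 ratio of -1.12. In both genes each R6/1 group was below each WT group. Kcnh8, the remaining Kv12 pore, was scarce and went the other way, from 0.199 FPKM in WT-vehicle to 0.329 in R6/1-vehicle (0.60). The ether-a-go-go pore Kcnh1, at 14.4 FPKM in WT-vehicle, and the Erg pore Kcnh2, at 13.7 FPKM, had ratios of -0.11 and -0.03. Summed over Kcnh3, Kcnh4 and Kcnh8, R6/1-vehicle held 43.2% of the WT-vehicle level, against 94.5% for the Kv10 pores Kcnh1 and Kcnh5 and 99.98% for the Erg pores Kcnh2, Kcnh6 and Kcnh7.

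The Kv1 and Kv4 pores, which carry delayed rectifier and A-type currents, lay inside the fold in the vehicle comparison. Of the 6 Kcna and 3 Kcnd genes, 0 were past the fold, with subfamily medians of -0.17 and -0.14. Kcna1, the most abundant Kv1 pore, was at 28.9 FPKM in WT and 21.9 FPKM in R6/1 with vehicle, and 29.5 and 22.1 FPKM with RGFP109 (-0.40 with vehicle), and Kcna4, the A-type Kv1 pore, was at 11.9 FPKM in WT-vehicle (-0.16). The Kv3 pores Kcnc1 and Kcnc2, known for the narrow spikes of fast-spiking interneurons, had ratios of -0.24 and -0.19, while Pvalb, the marker of those cells, went from 43.7 to 24.2 FPKM (-0.85). Kcna3, at 2.63 FPKM in WT-vehicle and 3.59 in R6/1-vehicle, had the highest ratio among members at 1 FPKM or more (0.44), still inside the fold.

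The M-channel pores of the Kcnq subfamily set the threshold for repeated firing. Kcnq3 was at 13.9 FPKM in WT-vehicle (-0.21 in R6/1-vehicle against it) and Kcnq5 at 17.1 FPKM in WT and 11.9 FPKM in R6/1 with vehicle, and 18.4 and 11.9 FPKM with RGFP109 (-0.52). Kcnq5 was past the fold and Kcnq3 was not. Kcnq1, a pore of heart and epithelium, was also past it (-1.21) but at 0.145 and 0.0344 FPKM, and its locus holds the antisense RNA Kcnq1ot1.

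The electrically silent Kv subunits, which form no channel alone and modify Kv2 pores, were lower in 4 of 9 cases. Kcns3, the Kv9.3 subunit, was at 1.67 FPKM in WT and 0.80 FPKM in R6/1 with vehicle, and 1.69 and 0.805 FPKM with RGFP109 (-1.02 with vehicle). Kcng2, the Kv6.2 subunit, was at 2.06 FPKM in WT and 0.759 FPKM in R6/1 with vehicle, and 1.67 and 1.07 FPKM with RGFP109 (-1.38). The R6/1 groups were below the WT groups in both genes, and Kcng2 was also the member at 1 FPKM or more whose genotype ratio differed most between vehicle and RGFP109. Kcns1 was past the fold at 5.87 FPKM in WT-vehicle and 3.44 in R6/1-vehicle (-0.76), as was the scarce Kcng4 (-0.88). The more abundant silent subunits Kcnf1, Kcnv1, Kcns2 and Kcng1 had ratios of -0.34, -0.45, -0.15 and 0.01 and stood inside it.

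Of the inward rectifiers, 6 of 13 Kcnj genes were lower past the fold. Kcnj4, whose promoter is printed above, had a log2 ratio of -0.93 with vehicle and made up 90.1% of the summed Kir2 level of Kcnj2, Kcnj4 and Kcnj12 in WT-vehicle. Kcnj2, the Kir2.1 pore of the same neurons, was at 9.0 FPKM in WT and 7.54 FPKM in R6/1 with vehicle, and 9.43 and 7.14 FPKM with RGFP109 (-0.25), and Kcnj12 at 4.72 FPKM in WT-vehicle (-0.22). The ratio of Kcnj4 to Kcnj2 was 13.9 in WT-vehicle and 8.71 in R6/1-vehicle, so the isoforms of the Kir2 group were unequally lower. Summed, the Kir2 pores stood at 55.6% of WT-vehicle in R6/1-vehicle.

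The G-protein-gated Kir3 pores summed to 76.3% of WT-vehicle. Kcnj9, which encodes Kir3.3, was past the fold at 31.8 FPKM in WT-vehicle and 21.2 in R6/1-vehicle (-0.58), whereas Kcnj3, which encodes Kir3.1, was at 13.5 and 13.2 FPKM (-0.04). The KATP pore Kcnj11, which couples excitability to the energy state of the cell, was just past the fold at 18.5 and 13.0 FPKM (-0.51). Kcnj8, the KATP pore of pericytes, was at 2.55 FPKM in WT and 1.76 FPKM in R6/1 with vehicle, and 2.39 and 2.18 FPKM with RGFP109 (-0.53 with vehicle), and of 6 endothelial and pericyte markers 1 was lower past the fold, with a median of -0.23. The scarce Kcnj14, at 0.539 and 0.290 FPKM, was also past the fold (-0.79).

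Kcnj10, the Kir4.1 pore by which astrocytes clear potassium, was at 43.0 FPKM in WT and 32.8 FPKM in R6/1 with vehicle, and 43.5 and 32.8 FPKM with RGFP109 (-0.39 with vehicle). Its partner Kcnj16 was at 5.83 FPKM in WT and 5.25 FPKM in R6/1 with vehicle, and 6.84 and 4.53 FPKM with RGFP109 (-0.15). Astrocyte markers had a median log2 ratio of -0.37 with vehicle and a range from -0.73 to -0.26 over 7 genes. The ratio of Kcnj10 lay within that range and that of Kcnj16 outside it. The part of astrocytes in the level of Kcnj10 was not tested.

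Tandem-pore domain channels carry leak currents, and 5 of 11 Kcnk genes were lower past the fold. Kcnk4, the mechanically gated TRAAK channel, was at 3.79 FPKM in WT and 1.43 FPKM in R6/1 with vehicle, and 3.71 and 1.62 FPKM with RGFP109 (-1.37 with vehicle). Kcnk2, the related TREK-1, was at 36.7 FPKM in WT and 25.5 FPKM in R6/1 with vehicle, and 36.7 and 23.6 FPKM with RGFP109 (-0.52). Kcnk10, the TREK-2 of the same branch, was at 1.52 FPKM in WT-vehicle (-0.09), so the branch was not lower throughout. Kcnk1, the most abundant of the subfamily, was at 53.3 FPKM in WT-vehicle and 39.4 in R6/1-vehicle (-0.43), inside the fold. The halothane-inhibited channels Kcnk13, known for microglia, and Kcnk12 were past it, at -0.76 and -0.65, and Kcnk5 was past it at 0.390 and 0.180 FPKM. None of 6 microglia markers was past the fold, with a range from -0.35 to -0.13, and Kcnk6, also found in microglia, was at 1.47 and 1.3 FPKM (-0.18). Kcnk13 itself was at 5.68 FPKM in WT and 3.33 FPKM in R6/1 with vehicle, and 4.49 and 3.16 FPKM with RGFP109.

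Among calcium- and sodium-activated pores the differences were small or moderate. Kcnma1, the pore of the large-conductance BK channel, was at 13.2 FPKM in WT and 13.4 FPKM in R6/1 with vehicle, and 13.2 and 12.3 FPKM with RGFP109 (0.02 with vehicle). The small-conductance pore Kcnn2, which shapes the pause after a spike, was at 15.8 FPKM in WT-vehicle and 12.3 in R6/1-vehicle (-0.37). Kcnt1, the sodium-activated Slack channel, was at 55 FPKM in WT and 38.4 FPKM in R6/1 with vehicle, and 54.6 and 39.6 FPKM with RGFP109 (-0.52), just past the fold, and its relative Kcnt2 had a ratio of -0.01. Kcnn4, at 0.248 and 0.158 FPKM, was past the fold at a low level (-0.52), and Kcnu1, the sperm channel Slo3, stood at 1.16 FPKM (0.19).

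The auxiliary subunits held several of the most abundant genes that were lower. Kcnip2 had a log2 ratio of -1.07 with vehicle, from 160.0 to 76.1 FPKM. Kcnip3, also known as the calcium sensor DREAM, was at 65.6 FPKM in WT and 37.7 FPKM in R6/1 with vehicle, and 64.6 and 38.6 FPKM with RGFP109 (-0.80). Kcnip1 and Kcnip4, the other KChIP genes, had ratios of -0.21 and -0.09 and stood inside the fold. Kcnab1, a beta subunit that gives Kv1 channels fast inactivation, was at 97.0 FPKM in WT and 58.5 FPKM in R6/1 with vehicle, and 91.6 and 56.4 FPKM with RGFP109 (-0.73), while Kcnab2 and Kcnab3 had ratios of -0.43 and -0.42. Kcnmb4, the neuronal beta subunit of the BK channel, was at 63.8 FPKM in WT and 41.5 FPKM in R6/1 with vehicle, and 61.8 and 51.9 FPKM with RGFP109 (-0.62). In all of these the R6/1-vehicle level was below the WT-vehicle level. The R6/1-RGFP109 level lay between them in Kcnmb4, and also in Kcnip1, Kcnip3, Kcnab2 and Kcnab3. The log2 ratio of R6/1-RGFP109 against R6/1-vehicle was 0.31 for Kcnmb4 and 0.04, 0.03, 0.06 and 0.01 for these others. Kcnip4 was at 24.8 FPKM in R6/1-RGFP109 and 24.7 in WT-vehicle, but at 29.0 in WT-RGFP109. Against WT-RGFP109, the log2 ratio of R6/1-RGFP109 was -0.23 for Kcnip4, -0.37 for Kcnip1 and -0.76 for Kcnab3, each larger in size than with vehicle. It was smaller in size than with vehicle for Kcnip3 (-0.74), Kcnab2 (-0.41) and Kcnmb4 (-0.25). The Kcne subfamily was led by Kcne1l, at 6.56 FPKM in WT and 6.25 FPKM in R6/1 with vehicle, and 6.14 and 6.25 FPKM with RGFP109 (-0.07), and Kcne3 and Kcne4, both under 1 FPKM in all groups, had ratios of -1.08 and -0.02. Kcne2 is described with RGFP109 below.

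Further members stood inside the fold with vehicle. The Kv1 pores Kcna2, Kcna5 and Kcna6 were at -0.18, -0.16 and -0.32, the Kv3 pore Kcnc4 at -0.41, and Kcnb2 at 0.29. Among the rest, Kcnd1 was at -0.17, Kcnh6 at 0.24, Kcnh7 at 0.04, Kcnj6 at -0.31, Kcnk3 at -0.08, Kcnk9 at -0.24, Kcnn1 at -0.43 and Kcnn3 at -0.01. All of these reached 1 FPKM in at least 1 group. Kcng3, Kcnj5, Kcnk7, Kcnmb1, Kcnmb2, Kcnd3os and Kcnq1ot1 stayed under 1 FPKM in every group, with ratios from -0.37 for Kcnmb2 to 0.32 for Kcnq1ot1.

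With vehicle, 3 sets of auxiliary genes were lower by more than the pores they join. The 4 KChIP genes summed to 56.2% of WT-vehicle in R6/1-vehicle and the 3 Kv4 pores to 97.2%, so that the ratio of KChIP to Kv4 levels was 5.70 in WT-vehicle and 3.30 in R6/1-vehicle. Kcnd2, the main Kv4 pore, was at 29.8 FPKM in WT and 27.1 FPKM in R6/1 with vehicle, and 31.1 and 25.2 FPKM with RGFP109 (-0.14 with vehicle), and Kcnd3 had a ratio of 0.24, with the antisense Kcnd3os in its locus. The ratio of Kcnmb4 to Kcnma1 was 4.82 in WT-vehicle and 3.10 in R6/1-vehicle, but 4.69 in WT-RGFP109 and 4.23 in R6/1-RGFP109, a smaller gap. The ratio of summed Kcnab to summed Kcna levels moved less, from 2.41 to 1.97. These quotients set mean levels of RNA side by side and hold no information on assembled channels.

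**Figure D3:**
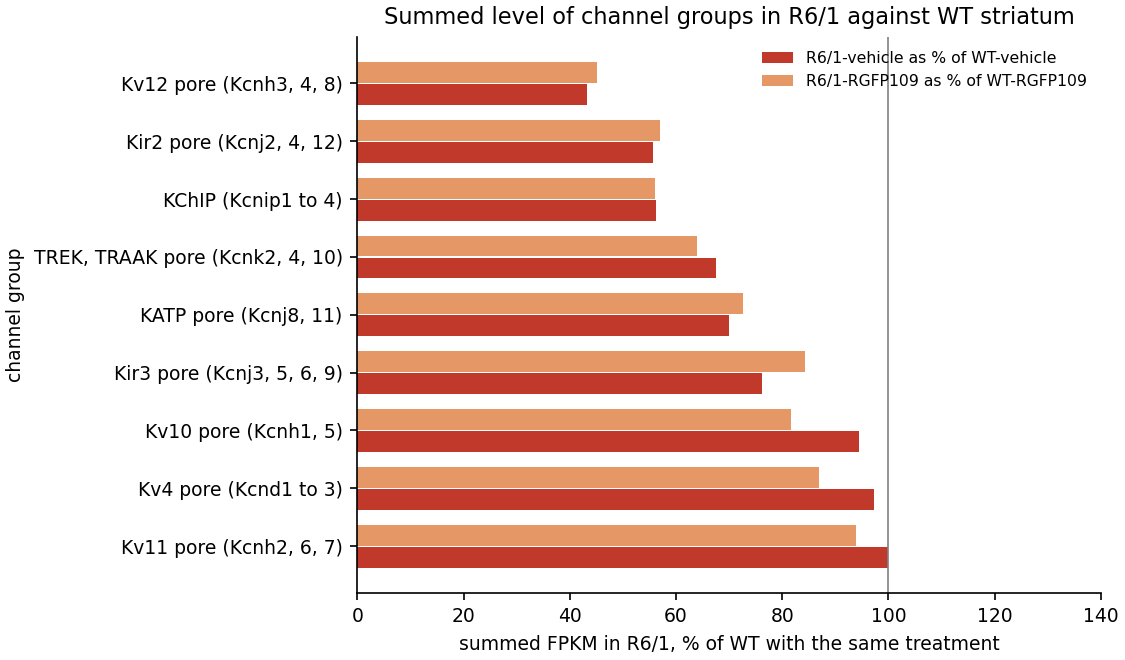
Summed FPKM of 9 channel groups in R6/1 as a percentage of WT with the same treatment, with 1 bar for vehicle and 1 for RGFP109 and a line at 100%. The Kv12, Kir2 and KChIP groups lie lowest, at 43.2%, 55.6% and 56.2% with vehicle, while the Kv4 and Kv11 groups lie at 97.2% and 99.98% with vehicle.

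The genes higher past the fold with vehicle were Kcnh8 and Kcnrg, both under 1 FPKM. Kcnrg, which encodes a soluble regulator of Kv1 assembly, went from 0.461 to 0.711 FPKM (0.58), and its deposited locus also holds Dleu2, Trim13 and 2 microRNA genes. Some loci were shared with other genes, and strand was not stated in counting, so overlapping genes cannot be told apart there. The antisense RNAs Kcnmb4os1 and Kcnmb4os2 had ratios of -0.66 and -0.61, near that of Kcnmb4, which they overlap. Kcnmb1 lies within Kcnip1, and the locus of Kcnh3 also holds Mcrs1, whose level was 17.4 FPKM in WT-vehicle and 14.3 in R6/1-vehicle.

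The comparison of R6/1-RGFP109 with WT-RGFP109 asks the same question with the inhibitor in both genotypes, in mice that share no animal with the vehicle groups. Of the 88 members, 28 were lower past the fold and 4 higher (31.8% and 4.55%), against 11.7% lower and 5.53% higher over all genes, and the median log2 ratio was -0.33 against 0.00. Among the 71 members at 1 FPKM or more, 21 were lower and 0 higher, against 9.4% and 3.84% of all genes at that minimum. Of the 14 auxiliary subunits, 6 were lower past the fold and 1 higher, and 11 had a ratio below 0, where all 14 did with vehicle. There were 21 members lower past the fold in both comparisons, which is 72.4% of the vehicle list and 75% of the RGFP109 list, where the 1334 of all genes lower in both were 58% and 66.0% of their lists. At a minimum of 1 FPKM the gap was smaller, with 72.7% and 76.2% for the members against 63.6% and 73.1% for all genes. The 4 higher members were Kcnh8, Kcnrg, Kcnk7 and Kcnmb1, each under 1 FPKM, and Kcnh8 and Kcnrg were higher in both comparisons. Across the comparisons 0 members were past the fold in opposite directions, and 76 of 88 (86.4%) had the same sign, against 79.0% of all genes. Across the 88 genes, which are not independent replicates, Pearson's r between the vehicle and RGFP109 ratios was 0.78 and Spearman's rho 0.72, against 0.15 and 0.67 over all 17264 genes. With vehicle the ratios of all genes ran from -12.9 to 11.2 and those of the members from -1.80 to 0.60. Pearson's r is sensitive to such extremes, so the rank values, which were close, are the more alike comparison.

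**Figure D4:**
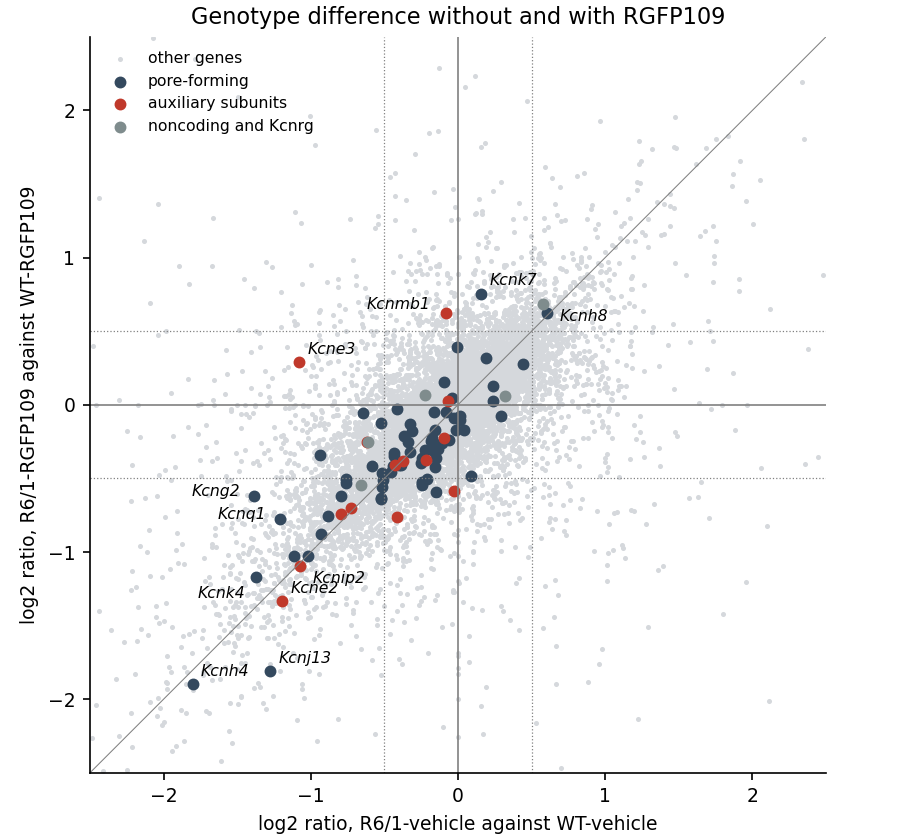
The log2 ratio of R6/1-RGFP109 against WT-RGFP109 over that of R6/1-vehicle against WT-vehicle, with Kcn genes in dark colours, other genes in grey within 2.5 log2 units, dotted lines at 0.5 and -0.5 and the line of equal values. Kcnh4, Kcnip2 and Kcnk4 lie near the line far below 0, and Kcne3 lies furthest from it, at -1.08 with vehicle and 0.29 with RGFP109.

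The 10 members that were lowest with vehicle at 1 FPKM or more were past the fold again in these mice. Kcng2 went from -1.38 with vehicle to -0.62 with RGFP109 and Kcnj13 from -1.28 to -1.81, the widest gaps of the 10. For the others the log2 ratio with RGFP109 was -1.90 for Kcnh4, -1.17 for Kcnk4, -1.33 for Kcne2, -1.03 for Kcnh3, -1.09 for Kcnip2, -1.02 for Kcns3, -0.88 for Kcnj4 and -0.74 for Kcnip3. Among members under 1 FPKM, Kcne3 went from -1.08 to 0.29 and Kcnk5 from -0.94 to -0.34, and so left the fold. Of the channel groups, Kv12 pores were at 45.2% of WT-RGFP109, Kir2 pores at 56.9% and KChIP genes at 56.1%. Kcnab1 (-0.70), Kcnk2 (-0.64), Kcnq5 (-0.63), Kcnj11 (-0.51), Kcns1 (-0.53) and Kcnk13 (-0.50) were past the fold here too. Kv4 pores summed to 86.8% here against 97.2% with vehicle, and the ratio of KChIP to Kv4 levels was 5.34 in WT-RGFP109 and 3.45 in R6/1-RGFP109.

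The comparisons differed in 15 lower members. Past the fold with vehicle alone were Kcne3, Kcnj8, Kcnj9, Kcnk5, Kcnk12, Kcnmb4, Kcnmb4os2 and Kcnt1, and past it with RGFP109 alone were Kcnab3, Kcnc1, Kcne4, Kcnj5, Kcnj16, Kcnk9 and Kcnq3. Several of these lay near the fold in both, such as Kcnt1 at -0.52 and -0.46 and Kcnj9 at -0.58 and -0.41. Kcnmb4 was at -0.62 with vehicle and -0.25 with RGFP109. Kcnk12, whose levels were 2.59 FPKM in WT and 1.63 FPKM in R6/1 with vehicle, and 1.99 and 1.91 FPKM with RGFP109, had ratios of -0.65 and -0.06. The ratios of 9 members differed by more than 0.5 between the comparisons, of which 4 reached 1 FPKM, namely Kcng2, Kcnh5, Kcnj13 and Kcnk12. Whether any of these differences exceeds the spread between mice was not tested.

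The comparison of R6/1-RGFP109 with R6/1-vehicle asks how the levels stood with the inhibitor in the diseased striatum. Of the 88 members, 2 were lower past the fold and 0 higher, against 3.31% lower and 2.77% higher over all genes, and the median ratio was 0.00. These 2 were Kcne2 and Kcnj13, and 76 of the 88 ratios were under 0.25 in size. In WT-RGFP109 against WT-vehicle, 5 were lower past the fold and 0 higher, against 4.94% and 3.29% over all genes, with a median of -0.01. They were Kcne2 and Kcnj13 again, with Kcne3, Kcnk5 and Kcnmb1, each of these last 3 under 1 FPKM in all groups. In R6/1 the members' share was 2.27% lower and 0% higher, under that of all genes in both directions, and in WT it was 5.68% lower, near that of all genes, and 0% higher.

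Apart from Kcne2 and Kcnj13, most genes that were low in R6/1 differed little with RGFP109. The R6/1-RGFP109 against R6/1-vehicle ratio was -0.16 for Kcnh4, 0.01 for Kcnh3, -0.12 for Kcnip2, 0.03 for Kcnip3, -0.04 for Kcnj4, -0.06 for Kcnab1 and -0.12 for Kcnk2. Larger values, still inside the fold, included 0.47 for Kcng2, the highest of all members, 0.31 for Kcnmb4, 0.30 for Kcnj8 and 0.21 for Kcnk12. The WT-RGFP109 against WT-vehicle ratio of these 4 genes was -0.30, -0.05, -0.10 and -0.38. All 4 genes were low in R6/1-vehicle against WT-vehicle, and the treatment ratios use those same vehicle groups. Whether these values exceed the spread between mice was not tested. Low genes under 1 FPKM ranged in R6/1 from -0.31 for Kcnmb4os1 to 0.42 for Kcne3.

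Kcne2 and Kcnj13 stood apart from the other members. Kcnj13, the Kir7.1 pore of the choroid plexus and the retinal pigment epithelium, was at 9.23 FPKM in WT and 3.78 FPKM in R6/1 with vehicle, and 2.06 and 0.553 FPKM with RGFP109. Kcne2, a single-pass subunit that pairs with several pores and is abundant in choroid plexus epithelium, was at 3.61 FPKM in WT and 1.55 FPKM in R6/1 with vehicle, and 0.906 and 0.330 FPKM with RGFP109. In R6/1 against WT, Kcnj13 had log2 ratios of -1.28 with vehicle and -1.81 with RGFP109, and Kcne2 had ratios of -1.19 and -1.33. The levels of both were highest in WT-vehicle and lowest in R6/1-RGFP109, and each RGFP109 group was below both vehicle groups. The RGFP109 level of Kcnj13 was 14.5% of the vehicle level in R6/1 and 22.3% in WT, that is log2 ratios of -2.68 and -2.14. For Kcne2 it was 21.0% and 25%, or -2.09 and -1.94.

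The markers of the choroid plexus moved with these genes. All 6, Folr1, Kl, Clic6, Otx2, Aqp1 and Sostdc1, were lower past the fold with RGFP109 in each genotype, with log2 ratios from -2.93 to -0.61 in R6/1 and from -2.19 to -0.52 in WT, and none was at 0. Their summed level was 39.2 FPKM in WT and 23.7 in R6/1 with vehicle, and 15.8 and 9.83 FPKM with RGFP109, the same order of groups as for Kcne2 and Kcnj13. Folr1, a folate receptor of that epithelium, was at 9.79 FPKM in WT and 4.16 FPKM in R6/1 with vehicle, and 2.11 and 0.649 FPKM with RGFP109, with ratios of -2.61 in R6/1 and -2.19 in WT beside -2.68 and -2.14 for Kcnj13. The amount of choroid plexus taken with each striatum is not given in the sources used here, and its part in the levels of Kcne2 and Kcnj13, in the genotype comparisons too, was not tested. The locus of Kcnj13 lies in that of Gigyf2, which was at 13.4 FPKM in WT and 16.8 in R6/1 with vehicle and at 14.1 and 17.1 FPKM with RGFP109 and so did not share its pattern.

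**Figure D5:**
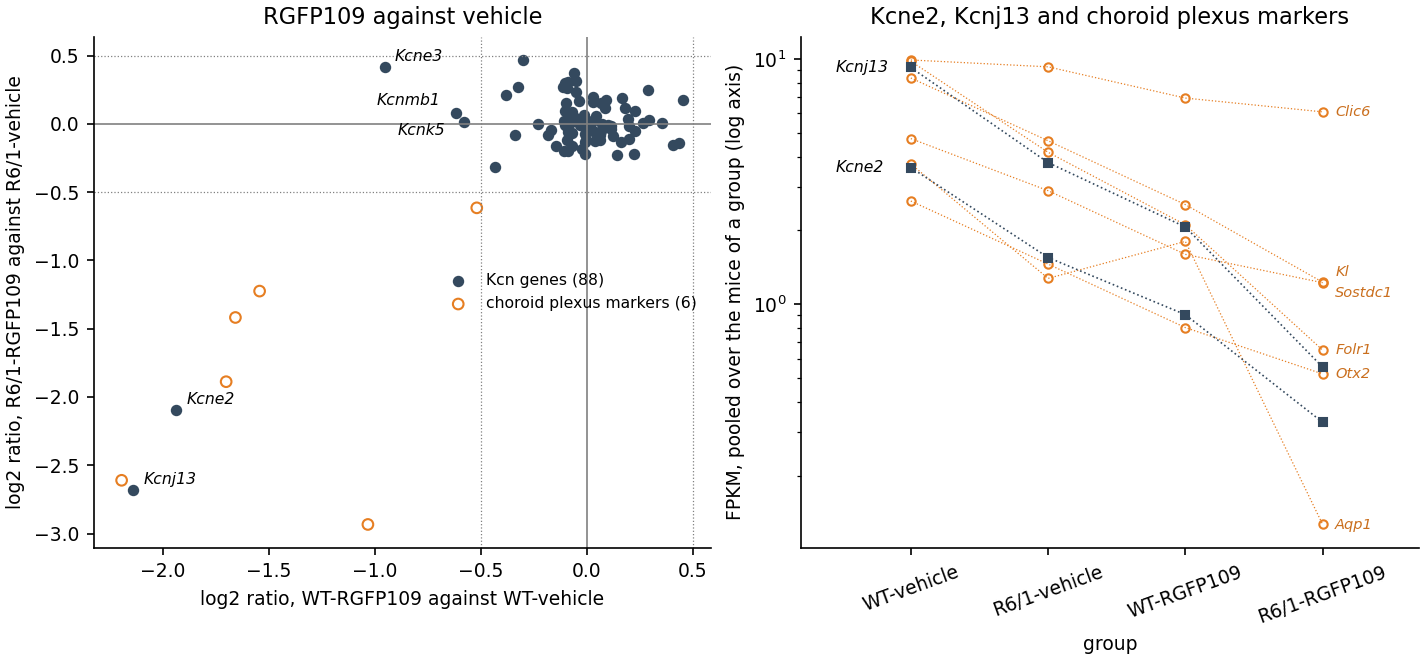
Left, the log2 ratio of RGFP109 against vehicle in R6/1 over that in WT for the 88 Kcn genes and 6 choroid plexus markers, with dotted lines at 0.5 and -0.5. Right, pooled FPKM on a log axis of Kcne2, Kcnj13 and the markers in the 4 groups, with dotted lines that only join the values of a gene, showing Kcnj13 going from 9.23 FPKM in WT-vehicle to 0.553 in R6/1-RGFP109.

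Between the treatment comparisons, which share no mice, Pearson's r across the 88 members was 0.70, and without Kcne2 and Kcnj13 it was -0.24 over 86 genes. The likeness of the inhibitor's ratios in R6/1 and WT thus rested on that pair.

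R6/1-RGFP109 was last set against WT-vehicle, which asks how far treated R6/1 striatum stood from untreated WT. Of the 88 members, 21 were lower past the fold and 1, Kcnh8, was higher (23.9% and 1.14%), against 13.7% lower and 5.53% higher over all genes, and the median was -0.29. Kcnj13 and Kcne2 were the lowest, at -3.95 and -3.27. Among members at 1 FPKM or more the next lowest were Kcnh4 at -1.96, Kcnk4 at -1.20, Kcnip2 at -1.19, Kcnh3 at -1.11, Kcns3 at -1.01, Kcnj4 at -0.97, Kcng2 at -0.91 and Kcnk13 at -0.84. Kcnmb4, at -0.30, and Kcnj8, at -0.23, were inside the fold here. This comparison shares its groups with the others and adds no mice.

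Partner genes outside the family were looked up in a list of 19, of which 18 reached the minimum. With vehicle, 3 of 18 were lower past the fold and 0 higher, with a median of -0.03. Over all genes 13.3% were lower and 5.86% higher, with a median of -0.02, so the partners lay near the gene list at large. With RGFP109 in both genotypes 5 were lower and 0 higher, with a median of -0.15, against 11.7% lower, 5.53% higher and a median of 0.00 over all genes. Of 8 proteins that bind Kv channels, 0 were past the fold with vehicle, and the Kv4 partners Dpp6 and Dpp10 were at 0.20 and 0.00. Akap5, the anchor that tethers kinases to M-channels, was at -0.31 with vehicle and -0.57 with RGFP109. Of the KATP sulfonylurea receptors, Abcc8, the partner of Kcnj11 in neurons, went from 6.51 to 3.98 FPKM (-0.70) with vehicle, and Abcc9, the vascular one, was at -0.15. The BK gamma subunit Lrrc26 was past the fold at 1.31 and 0.704 FPKM (-0.85), and Lrrc55 and Lrrc38 were at 0.12 and -0.03. Of the hyperpolarization-activated channels, Hcn2 was at 52.8 FPKM in WT-vehicle (-0.31) and Hcn3 at 5.39 FPKM (0.50), and their partner Pex5l went from 60.1 to 36.3 FPKM (-0.73). In neither treatment comparison was any of the 18 past the fold, where all genes had 3.31% lower and 2.77% higher in R6/1, and 4.94% and 3.29% in WT.

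Other voltage-gated channel families gave a frame for these counts. Of 25 calcium channel (Cacn) genes at the minimum, 7 were lower past the fold and 0 higher with vehicle, with a median of -0.12, and 6 were lower and 0 higher with RGFP109. Of 13 sodium channel (Scn) genes, 2 were lower and 2 higher with vehicle, with a median of 0.15, and 4 were lower and 1 higher with RGFP109. The share of lower genes with vehicle was 33.0% for Kcn, 28.0% for Cacn and 15.4% for Scn, the last near the 13.3% of all genes. With RGFP109 it was 31.8% for Kcn, 24.0% for Cacn and 30.8% for Scn, against 11.7% of all genes, so Scn was then near Kcn. No difference between the families was tested.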

How the data were processed

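Total RNA of the striatum of 24 mice was sequenced as single reads of 51 bases, 12 libraries in each of 2 pools. Per the labels and the study's methods, the authors aligned reads with STAR 2.5.0b to mm10, assembled RefSeq genes with Cufflinks 2.2.1 and ran Cuffdiff, and deposited 6 tables, each with 1 FPKM value per gene for each of 2 groups. Their columns of fold changes, test statistics, p-values and q-values were not used. The same group differed between tables by a near-constant factor (medians 0.962 to 1.036), so ratios were taken within a table. With no value per mouse, no test was run and no count of reads or depth could be had. Python 3.11.15, numpy 2.4.6, pandas 2.3.3 and matplotlib 3.10.9 computed log2 ratios of FPKM + 0.05 for genes at 0.1 FPKM or more in any group and counted ratios past 0.5, and the code was tested on simulated data. Replicates were pooled by the authors, and nothing in the sources used here says which pool of libraries held which mouse.

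Members, partner lists, cell type markers and settings were chosen with earlier results of these data known. Named genes were the 14 lowest and 8 highest in R6/1-vehicle against WT-vehicle among those past the fold at 1 FPKM or more (none was higher), the most abundant of each subfamily, those past the fold with RGFP109 at 1 FPKM or more, and members known for striatal cell types. Others are named where a small count or a subfamily called for it, after their values were seen, and a few members counted in the totals are not reported here by name. Promoters came from RefSeq on GRCm38.p6, the assembly of mm10. Alternatives were another pseudocount, other minimums, a stricter fold and centring on the median of all genes.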

Additional observations from a re-analysis of the deposited data

How the results depend on the processing

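The counts of members past the fold depended on how low levels were treated, and 1 median moved by more than 0.1. With a pseudocount of 1 FPKM the count was 17 in place of 31 for R6/1-vehicle against WT-vehicle, 15 in place of 32 for R6/1-RGFP109 against WT-RGFP109, 2 in place of 5 for WT-RGFP109 against WT-vehicle, 14 in place of 22 for R6/1-RGFP109 against WT-vehicle and 11 in place of 23 for genes past the fold with the same sign in both genotype comparisons. With a log2 ratio above 1 these counts were 10, 7, 2, 7 and 7. With a minimum of 1 FPKM they were 21 for R6/1-RGFP109 against WT-RGFP109 and 2 for WT-RGFP109 against WT-vehicle. For R6/1-RGFP109 against R6/1-vehicle the count of 2 became 4 with no pseudocount (2 lower and 2 higher) and 4 with no minimum (4 lower). With a minimum of 10 FPKM, added after seeing the data, 39 members were left, and the counts were 12 and 12 in the genotype comparisons, 0 and 0 in the treatment comparisons, 8 for R6/1-RGFP109 against WT-vehicle and 9 with the same sign in both genotype comparisons. The median of R6/1-vehicle against WT-vehicle was then -0.39 in place of -0.28. At that minimum 30.8% of members were lower in each genotype comparison, against 9.68% of all genes with vehicle and 8.29% with RGFP109. Shares of all genes under the other pseudocount and the stricter fold are not given here, so those counts cannot be set against them. The remaining 44 of 65 alternatives stayed within 1.5 times the count or 0.1 of the median. Higher members were lost under the larger pseudocount because their levels and their differences were both small, as for Kcnrg, from 0.461 to 0.711 FPKM with vehicle. Of 943 alternatives for 369 values of named genes, 936 kept their side of the fold and 7 lost it, all with a pseudocount of 1 FPKM (Kcng2, Kcnk13, Kcnq3 and Kcns1 with RGFP109, and Kcnj8, Kcnk12 and Kcnmb4os2 with vehicle), and none changed direction. Centring moved the median of all genes by 0.02 or less. No paired analysis was possible because the tables hold 1 value per group, and leaving out each mouse in turn was not run for the same reason. Depth is unknown, so the precision of values under 1 FPKM could not be given.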

Other observations

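Some members lie side by side in the genome (RefSeq, GRCm38.p6) and can be compared as neighbours. Kcnj9 and Kcnj10 on chromosome 1 are 11.9 kb apart, and their log2 ratios in R6/1-vehicle against WT-vehicle were -0.58 and -0.39. Kcnj16 and Kcnj2 on chromosome 11, an astrocyte and a neuronal inward rectifier 38.2 kb apart, were at -0.15 and -0.25. Kcna1, Kcna5 and Kcna6 on chromosome 6 were at -0.40, -0.16 and -0.32. On chromosome 3, Kcna3 and Kcna2 are 52.8 kb apart and went in different directions, at 0.44 and -0.18. None of these differences could be tested on pooled values.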
